A study of Naumovozyma castellii with 10 samples.

Results

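Small RNAs were measured over 245 solo XUTs of the budding yeast Naumovozyma castellii, in which the RNA interference pathway is still present. An XUT is a long non-coding RNA recognised by its accumulation when the 5′-to-3′ exonuclease Xrn1 is missing, and it is called solo here when no mRNA, XUT, CUT (cryptic unstable transcript) or SUT (stable unannotated transcript) overlaps it on the opposite strand. Of the 1021 XUTs among 8407 annotated features, 263 met this rule. The 17 that lie within 20 kb of the first or last feature of their chromosome and XUT0769 were left out, which gave the 245. Apart from XUT0769, left out by name, the rule used positions and strands, and it used no measured value. The 704 XUTs that do have such an opposite-strand feature, and lie away from the chromosome ends, are called antisense XUTs below and serve as the comparison. They do not include XUT0620 and XUT0859, which were also left out by name.

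In yeasts with RNA interference, the RNase III enzyme Dicer cuts double-stranded RNA into small RNAs, and Argonaute binds them. Double-stranded RNA can form between transcripts of opposite strands, or within a transcript that folds back on itself. Many XUTs reach the cytoplasm, where ribosomes can engage them and nonsense-mediated decay (NMD), a translation-dependent pathway that needs the helicase Upf1, can send them to decapping and Xrn1.

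Each of the 5 groups held 2 libraries, described in the labels as biological replicates, and all strains were MATalpha ura3-1 ho. The groups were upf1 (upf1::kanMX6, no NMD), WT CHX (wild type given the translation inhibitor cycloheximide at 100 µg/mL for 15 min), dcr1 upf1 (the dcr1 mutation, without Dicer, together with upf1::kanMX6), dcr1 CHX (the dcr1 mutation with the same cycloheximide treatment) and WT (no treatment). No dcr1 group without cycloheximide was analysed here, and the nature of the dcr1 allele is not given in the sources used here. Cultures were taken from YPD at 25 °C, at an OD600 of 0.5. Values are densities, that is reads per nucleotide (nt) of a feature on its own strand, scaled by the authors to small RNAs of Schizosaccharomyces pombe added as a spike-in, and the unit is 1 read per nt in WT CHX replicate 1.

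The recovered read totals over all features were 6237106 and 6904640 in upf1, 3169072 and 4323102 in WT CHX, 129559 and 141701 in dcr1 upf1, 137085 and 148330 in dcr1 CHX, and 4144522 and 3389205 in WT. UPF1 itself, listed as NAM7, had no read in the upf1 and dcr1 upf1 libraries, against 21 and 45 reads in WT CHX, 4 and 8 in dcr1 CHX and 13 and 3 in WT. The gene table gives no locus the name DCR1, so the dcr1 label could not be checked in this way.

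Solo XUTs carried far sparser small RNA than antisense XUTs in every group with Dicer. Their median density was 0.0107 in upf1, 0.00907 in WT CHX and 0.00232 in WT. Antisense XUTs had medians of 0.106 in upf1, 0.0646 in WT CHX and 0.0192 in WT, which is 9.87-fold, 7.12-fold and 8.27-fold above the solo XUTs of the same groups. A density of 0.1 or more was reached by 17.6% of solo XUTs in upf1, 10.6% in WT CHX and 5.71% in WT, against 51.7%, 38.1% and 14.3% of antisense XUTs. The order of the groups was thus the same in both classes, and the classes also differed in length, with medians of 494 nt for solo XUTs (201 to 3576) and 682 nt for antisense XUTs. These are descriptions of annotated intervals, and no test was made over them.

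**Figure D1:**
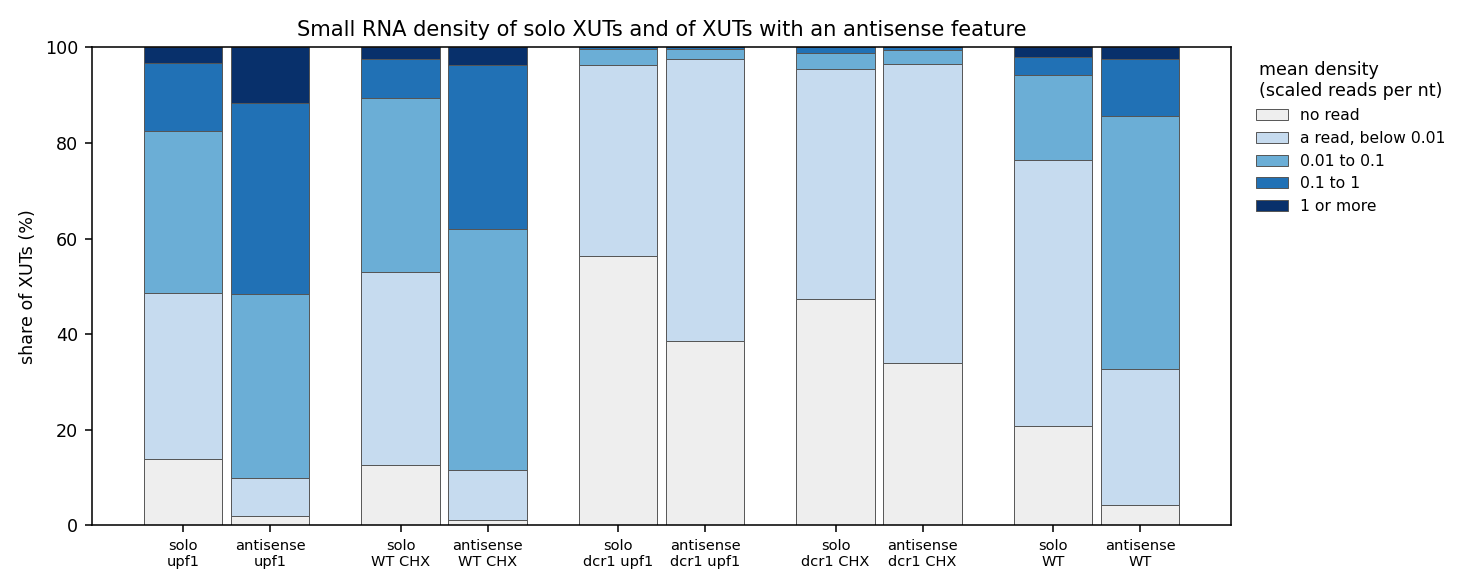
Share of XUTs, in percent, in 5 classes of mean density for each group, with solo XUTs (n = 245) left of antisense XUTs (n = 704) in each pair. Densities of 0.1 or more are rarer among solo XUTs in upf1, WT CHX and WT, and nearly all XUTs of both classes fall below 0.01 in dcr1 upf1 and dcr1 CHX.

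Most solo XUTs nevertheless had reads. In upf1, 193 and 194 of the 245 had at least 1 read, in WT CHX 192 and 197, in dcr1 upf1 82 and 81, in dcr1 CHX 102 and 98, and in WT 168 and 162. There were 14 members with no read in any library, and a count of 0 in a library allows up to 3 reads. The plot of density classes shows the members without a read in either library of a group as shares, 13.9% of solo XUTs in upf1, 12.7% in WT CHX, 56.3% in dcr1 upf1, 47.3% in dcr1 CHX and 20.8% in WT. Summed over all 245, density was 177 ± 27.3 in upf1, 110 ± 4.32 in WT CHX, 0.450 ± 0.0639 in dcr1 upf1, 1.15 ± 0.620 in dcr1 CHX and 69.6 ± 1.99 in WT (SD, n = 2 each).

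A handful of members made up most of these sums. XUT0891 alone gave 57.1% of the summed density in upf1, 63.9% in WT CHX and 62.5% in WT, and together with XUT0806, XUT0011, XUT0658 and XUT0908 it gave 88.6%, 89.7% and 93.5%. A summed value is therefore mainly a value of these 5 transcripts, and the member-by-member results below weigh each XUT equally.

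XUT0891 is a 487 nt transcript on the plus strand of chromosome 8 (401874 to 402360). Its density was 82.4 and 119 in upf1, 72.2 and 68.7 in WT CHX, 0.104 and 0.170 in dcr1 upf1, 0.229 and 0.211 in dcr1 CHX, and 41.3 and 45.8 in WT. Both upf1 libraries and both WT CHX libraries lay above both WT libraries, the 4 Dicer-deficient libraries lay far below all others, and no group overlapped WT. Its level in upf1 was 2.28-fold that in WT (log2 difference 1.19 ± 0.17 (SE), limma adjusted p = 0.000903), a difference that becomes -0.20 with mRNA-median scaling, described with the comparison of upf1 and WT. In WT CHX its level was 1.62-fold that in WT (limma adjusted p = 0.00907), a log2 difference that becomes -1.15 with the same scaling. The next opposite-strand feature, XUT0892, begins 27 nt beyond its 3′ end and was listed at 0 in all 10 libraries.

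XUT0806, with 2590 nt the longest of the densest members, lies on the minus strand of chromosome 7 (446711 to 449300), 325 nt upstream of the coding sequence of DCP2 (the decapping enzyme) on the same strand. It had densities of 25.1 and 26.0 in upf1, 9.999 and 9.03 in WT CHX, 0.0215 and 0.0275 in dcr1 upf1, 0.0437 and 0.0296 in dcr1 CHX, and 5.51 and 5.57 in WT. The 3 groups with Dicer did not overlap, with upf1 highest and WT lowest. Its rise was 4.61-fold in upf1 (limma adjusted p = 2.64e-06) and 1.71-fold in WT CHX (adjusted p = 0.000447), the second of which becomes a log2 difference of -1.07 with that scaling.

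XUT0011, on the plus strand of chromosome 1 (86069 to 87330), had like densities in the groups with Dicer. Its density was 8.49 and 11.2 in upf1, 7.96 and 8.86 in WT CHX, 0.0114 and 0.0174 in dcr1 upf1, 0.0289 and 0.0208 in dcr1 CHX, and 8.07 and 7.44 in WT. WT CHX replicate 1 lay below WT replicate 1, and neither the difference of upf1 against WT (1.26-fold, limma adjusted p = 0.0929) nor that of WT CHX against WT (1.08-fold, adjusted p = 0.488) passed the test. XUT0658 on chromosome 5 (589011 to 589884, minus strand) had 8.35 and 9.54 in upf1, 6.80 and 6.17 in WT CHX, 0.0128 and 0.0203 in dcr1 upf1, 0.0254 and 0.0238 in dcr1 CHX, and 6.08 and 5.09 in WT. It rose 1.604-fold in upf1 (limma adjusted p = 0.00326), a log2 difference that becomes -0.70 with mRNA-median scaling, and its difference between WT CHX and WT did not pass the test (1.17-fold, adjusted p = 0.151).

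XUT0908, a 427 nt transcript on the minus strand of chromosome 8 (644050 to 644476), reached 12.9 and 9.64 in upf1, 4.28 and 3.91 in WT CHX, 0.0131 and 0.00898 in dcr1 upf1, 0.0186 and 0.0139 in dcr1 CHX, and 2.66 and 2.72 in WT. It lay 4.14-fold higher in upf1 than in WT (limma adjusted p = 2.53e-05), with no overlap between the groups. Its opposite-strand neighbour XUT0907 begins 15 nt beyond its 3′ end and averaged 25.0 in upf1, 11.8 in WT CHX and 8.36 in WT, so both converging transcripts carried dense small RNA. The neighbour of XUT0658, XUT0657 at 9 nt, averaged only 0.0106 in upf1, 0.00606 in WT CHX and 0.00817 in WT. Dense solo XUTs were thus found beside a dense, a sparse and an empty opposite-strand neighbour. These are single examples. Over the 96 members with such a neighbour within 200 nt of the 3′ end, the densities of member and neighbour were weakly and positively correlated. Spearman values were 0.23 in upf1, 0.27 in WT CHX and 0.34 in WT, as a description without a test.

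**Figure D2:**
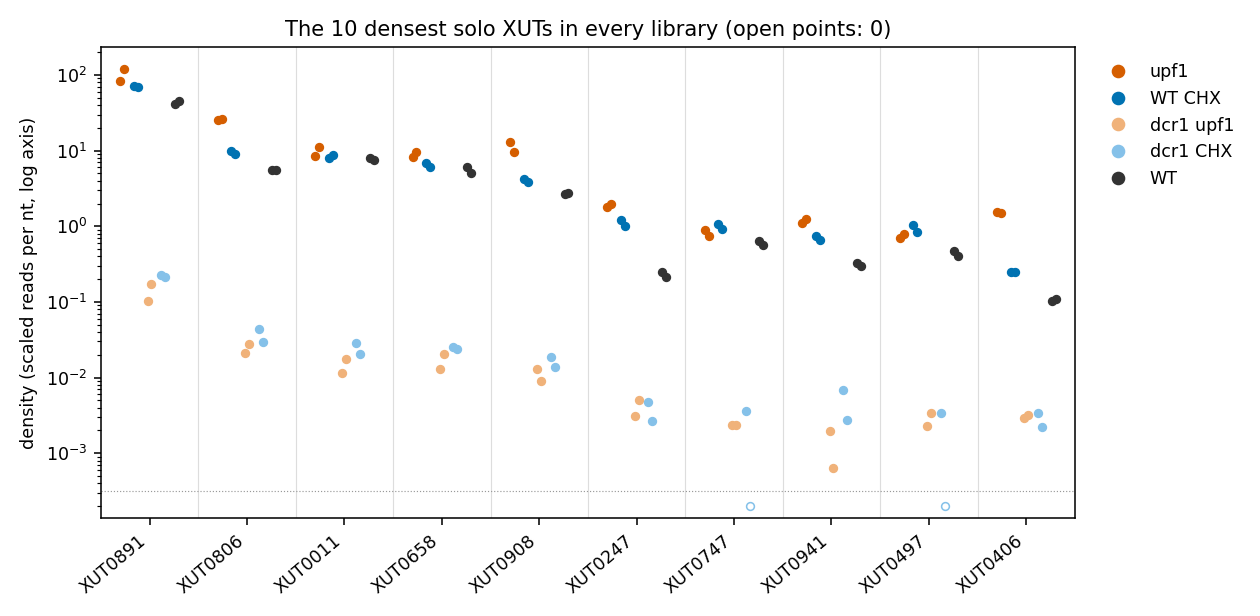
Density of the 10 densest solo XUTs in all 10 libraries on a log axis, with 1 point per library and open points at the bottom for 0. The 4 Dicer-deficient libraries lie far below the other 6 for every transcript shown, and XUT0406 and XUT0247 show the widest gaps between upf1 and WT.

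The remaining 5 of the 10 densest members had densities between 0.700 and 1.94 in upf1, as the plot of the densest members shows. XUT0406 had 1.56 and 1.48 in upf1, 0.251 and 0.250 in WT CHX, and 0.104 and 0.111 in WT, a rise of 14.02-fold in upf1 (limma adjusted p = 9.81e-07) and of 2.32-fold in WT CHX (adjusted p = 0.000207), the second of which becomes -0.62 on the log2 scale with mRNA-median scaling. XUT0247 had 1.82 and 1.94 in upf1, 1.21 and 1.012 in WT CHX, and 0.252 and 0.214 in WT. Its rises were 8.07-fold in upf1 and 4.75-fold in WT CHX. For XUT0747 and XUT0497 all WT CHX values lay above all upf1 values, with 1.07 and 0.914 in WT CHX against 0.885 and 0.735 in upf1 for XUT0747, but neither difference passed the test (1.23-fold, limma adjusted p = 0.147, and 1.25-fold, adjusted p = 0.127).

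The density of a member varied with the place of its opposite-strand neighbours. The nearest opposite-strand feature was an mRNA for 208 members, an XUT for 22, a CUT for 13 and a SUT for 2, at a median distance of 184 nt. For 96 members such a feature lay within 200 nt beyond the 3′ end, and these had median densities of 0.0215 in upf1, 0.0161 in WT CHX and 0.00595 in WT. The 117 members with none within 200 nt of either end had medians of 0.00395 in upf1, 0.00485 in WT CHX and 0.00113 in WT, and the 32 with 1 at the 5′ end only lay between. The median lengths of these classes were 482, 520 and 441 nt in the order just given.

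**Figure D3:**
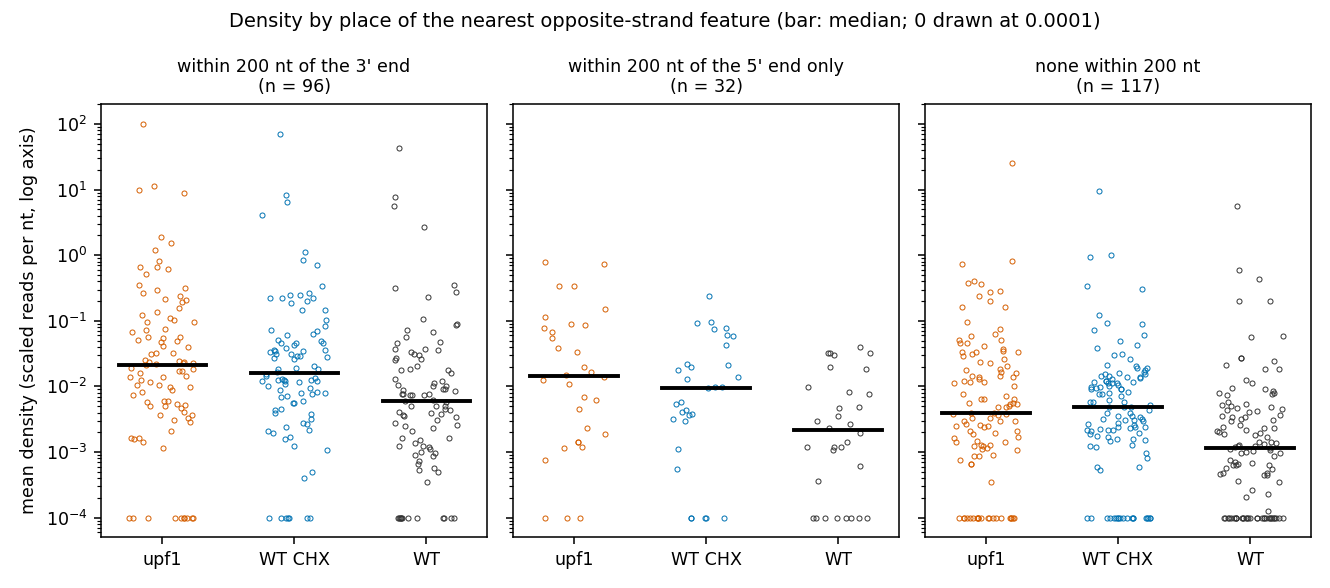
Mean density of each solo XUT on a log axis in upf1, WT CHX and WT, by whether an opposite-strand feature lies within 200 nt of its 3′ end (n = 96), of its 5′ end only (n = 32) or of neither (n = 117), with bars for medians and 0 drawn at 0.0001. The medians are highest for the first class, and each class spans several orders of magnitude.

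The classes in the plot of neighbours overlap widely, and the second densest member, XUT0806, has its nearest 3′ neighbour 3109 nt away. Of the 5 densest members, 4 had an opposite-strand feature within 50 nt of the 3′ end, as did 36 of all 245. The mRNA intervals of the file hold coding sequence without UTRs, because 97.6% of their lengths are multiples of 3, so untranslated parts of neighbouring mRNAs may reach further and overlap members. How far they do was not tested. Length went with density too, with medians in upf1 of 0.00265 for the 82 members of 201 to 386 nt, 0.0104 for the 82 of 387 to 649 nt and 0.0187 for the 81 longer ones. Members with a CUT annotated on their own strand (72) and without (173) had medians of 0.0116 and 0.00965 in upf1.

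The upf1 libraries were compared with WT to see which solo XUTs carry more small RNA when NMD is missing. Among the 174 members dense enough to be tested, 119 rose and XUT0951 fell, with a median log2 difference of 1.83 (2.47 and 0.78 with a pseudocount 10 times smaller and larger). The median was 1.85 when 8 members that had no read in 1 of the groups were set to their bounds. For this, 5 others, at or under the floor of 3 reads in both groups, were left out. Over all 7727 features tested, 58.9% were called higher and 0.647% lower, with a median of 1.22, and among antisense XUTs 566 of 685 rose with a median of 2.20. The share of solo XUTs that rose, 68.4%, thus lay between that of all features and that of antisense XUTs, 82.6%. The pseudocount understates folds of sparse features, so shares of classes that differ in density are not directly comparable. The summed density in upf1 was 2.54 ± 0.326 times that in WT, 4.46 times without the 5 densest members, and 0.974 times with mRNA-median scaling. For this and later ratios or percentages of sums, ± is the SD over all pairs of libraries between the groups. Each library recurs in several pairs, so this SD is no spread of independent replicates.

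XUT0900 showed the largest fitted rise. This 759 nt transcript on the plus strand of chromosome 8 (572204 to 572962) begins 189 nt from FBA1 on the opposite strand, the gene of the glycolytic aldolase. It had densities of 0.681 and 0.622 in upf1 against 0.0166 and 0.0196 in WT, with 0.0448 and 0.0523 in WT CHX. Every upf1 library was far above every other library, and the rise was 33.5-fold (log2 difference 5.07 ± 0.18, limma adjusted p = 1.32e-06).

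XUT0695 on chromosome 6 (93226 to 94242, minus strand) had 0.874 and 0.680 in upf1 against 0.0243 and 0.0399 in WT, a rise of 23.7-fold (limma adjusted p = 9.19e-06). XUT0562 on chromosome 4 (391274 to 392422, plus strand) had 0.390 and 0.375 in upf1 against 0.0190 and 0.0184 in WT, 19.1-fold higher (adjusted p = 2.23e-06). XUT0852 on chromosome 8 (48462 to 49464, plus strand), which begins 141 nt from LEU3, a regulator of leucine synthesis, had 0.727 and 0.767 in upf1 against 0.0416 and 0.0382 in WT, 18.1-fold higher (adjusted p = 2.90e-06). In each of these the 2 upf1 libraries lay close together and far above both WT libraries.

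Some of the largest rises rested on few WT reads. XUT1007 on chromosome 10 had 50 and 63 reads in upf1 against 0 and 3 in WT, a ratio of 51.4 with a 95% counting interval of 17.1 to 253. That ratio holds no pseudocount, and the fitted rise of XUT1007 was 22.8-fold. XUT0634, XUT0371 and XUT0278 had 2 to 8 WT reads per library and fitted rises of 23.1-fold, 18.2-fold and 18.2-fold (limma adjusted p = 6.13e-05, 0.000506 and 0.000108). Of the members nearest the median, XUT0726 on chromosome 6 (515600 to 516150, minus strand), which ends 20 nt from DPL1 on the opposite strand, had 0.269 and 0.258 in upf1 against 0.0774 and 0.0685 in WT, 3.57-fold higher (adjusted p = 4.19e-05).

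The single fall, XUT0951 on chromosome 9 (405185 to 405414, minus strand), is a 230 nt interval with no read in upf1 against 2 and 3 reads in WT, at least 1.22-fold lower when 3 reads over the upf1 libraries are taken as the floor. It was named after its values were seen, and limma-voom called 0 members lower. When each library was scaled so that the median mRNA was level, in place of the spike-in, the log2 values of all features moved by -1.13 at the median, 65 solo XUTs were called higher and 13 lower, beside 2071 higher and 959 lower of all 7727 features, and the solo median was 0.92.

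**Figure D4:**
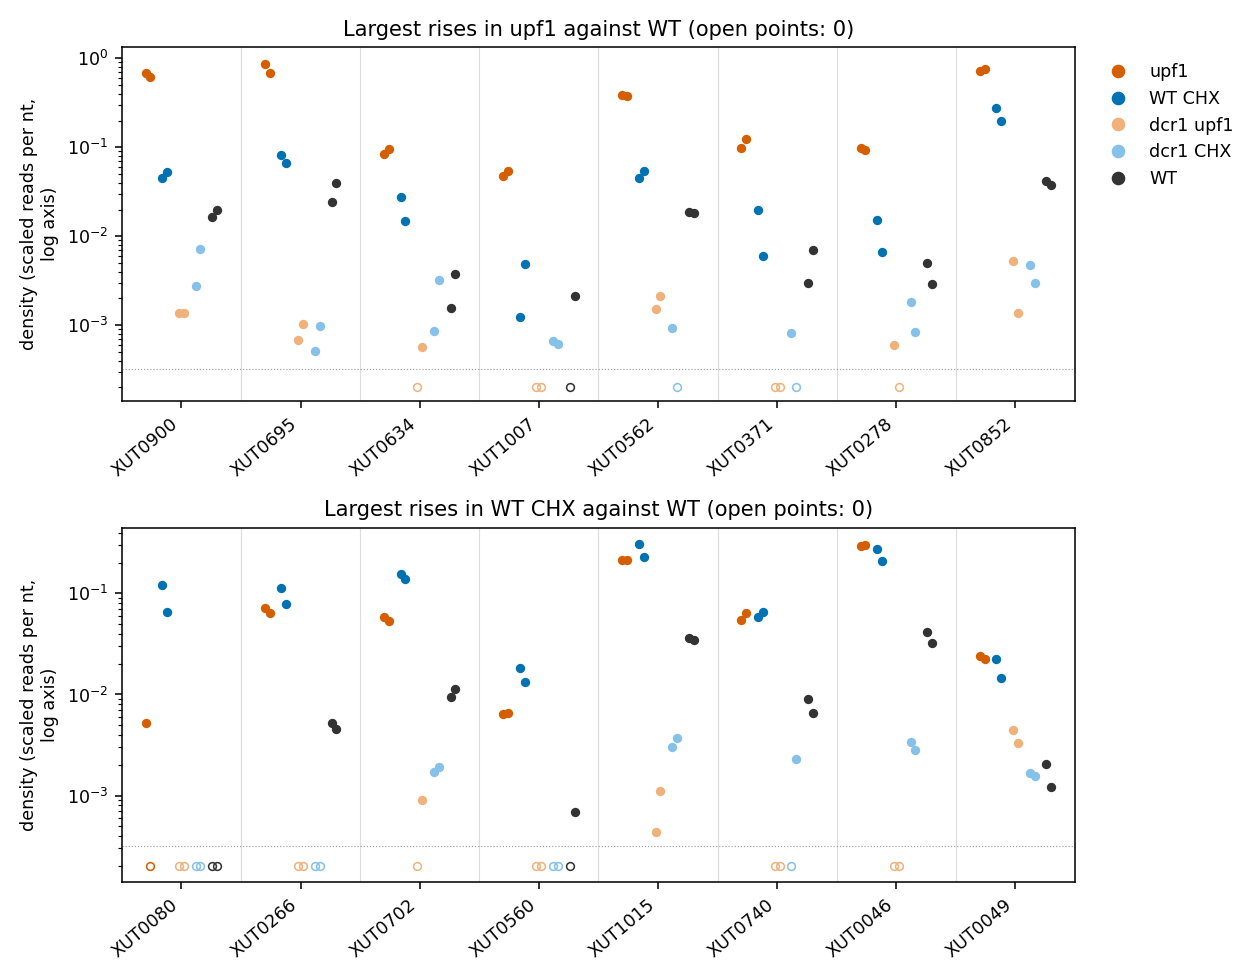
Density in all 10 libraries, on a log axis, of the solo XUTs with the largest rises in upf1 against WT (top) and in WT CHX against WT (bottom), with open points for 0. The upf1 points stand alone at the top for 8 transcripts of the upper panel, whereas in the lower panel the upf1 and WT CHX points lie close together for several, such as XUT0740, XUT0046 and XUT0049.

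Cycloheximide was compared with untreated WT to see which solo XUTs carry more small RNA after 15 min without translation. Of the 174 tested, 106 rose and 0 fell (limma; 0 fell at an unadjusted p under 0.05 and 0 with limma-voom), and the median log2 difference was 1.24, or 0.57 with a pseudocount 10 times larger. With mRNA-median scaling it was -0.20, with 13 members higher and 33 lower, beside 856 higher and 1167 lower of all 7727 features. Over all features, 78.3% were called higher and 0.168% lower, with a median of 1.52. Antisense XUTs had 574 of 685 higher and a median of 1.497. The share of solo XUTs that rose, 60.9%, was thus below that of all features, and the mRNA-median scaling moved all log2 values by -1.58 at the median. Solo XUTs were sparser than mRNAs in WT (medians 0.00234 and 0.00226 against 0.00627 and 0.00613), and folds of sparse features are understated. What this adds to the difference in shares was not tested.

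The largest fitted rise was that of XUT0080, a 290 nt transcript on the minus strand of chromosome 1 (862156 to 862445). It had 35 and 29 reads in WT CHX (densities 0.121 and 0.0651) against no read in either WT library, at least 32.1-fold higher with 3 reads over the WT libraries as the floor (limma adjusted p = 0.000425). It had 2 reads and 0 in upf1, and no read in any Dicer-deficient library. The WT CHX libraries thus held 64 of its reads and all other libraries together held 2. It was dense enough to be tested only through its WT CHX reads, so its p-value does not stand apart from that choice.

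XUT0266 on chromosome 2 (47094 to 47466, plus strand) had 0.113 and 0.0785 in WT CHX against 0.00520 and 0.00460 in WT, a rise of 15.1-fold (limma adjusted p = 7.41e-05). XUT0702 on chromosome 6 (187010 to 188558, plus strand), which ends 164 nt from LEU5, a mitochondrial carrier gene, had 0.156 and 0.139 in WT CHX, 0.0591 and 0.0535 in upf1, and 0.00939 and 0.0114 in WT. It rose 12.6-fold (adjusted p = 6.98e-05), and its WT CHX libraries lay above those of both other groups. XUT0560 had 15 and 17 reads in WT CHX against 0 and 1 in WT, a ratio of 48.1 with a 95% counting interval of 8.03 to 1958. That ratio holds no pseudocount, and the fitted rise of XUT0560 was 9.70-fold.

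As the plot of the largest rises shows, several transcripts had like levels in WT CHX and upf1. XUT1015 on chromosome 10 (398023 to 399612, plus strand), which ends 51 nt from VMA6, a gene of the vacuolar proton pump, had 0.308 and 0.230 in WT CHX, 0.215 and 0.213 in upf1, and 0.0366 and 0.0345 in WT. XUT0046 on chromosome 1, the member of this list that has a small structured RNA annotated on its opposite strand, had 0.276 and 0.211 in WT CHX, 0.295 and 0.303 in upf1, and 0.0415 and 0.0323 in WT. Their rises in WT CHX were 7.24-fold and 6.38-fold (limma adjusted p = 7.41e-05 and 8.77e-05). Summed density in WT CHX was 1.58 ± 0.0628 times that in WT, and 0.439 times with mRNA-median scaling.

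WT CHX and upf1, the 2 ways of impairing NMD, were then compared with each other. Of the 174 tested members, 14 were higher in WT CHX and 56 lower, with a median log2 difference of -0.51. The 14 became 6 without WT CHX replicate 1. With mRNA-median scaling 7 members were higher and 69 lower, beside 928 higher and 2269 lower of all 7727 features, and the median over all features was -0.18. With spike-in scaling, 24.5% of all features were higher and 22.2% lower, with a median of 0.23, and antisense XUTs had 68 higher and 344 lower of 685 with a median of -0.75. Those lower in WT CHX were 32.2% of the solo XUTs tested and 50.2% of the antisense XUTs. This comparison shares libraries with both comparisons to WT, so the same members' values recur in it.

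XUT0900, whose values in both groups are given above, was 13.1-fold lower in WT CHX than in upf1 (limma adjusted p = 1.45e-05) and XUT0695 10.3-fold lower (adjusted p = 0.00012). XUT0875 on chromosome 8 (189436 to 190215, plus strand) had 0.0308 and 0.0325 in WT CHX against 0.302 and 0.247 in upf1, 8.30-fold lower (adjusted p = 0.000149), with no overlap. XUT0388 on chromosome 2, a 238 nt transcript, had no read in WT CHX against 19 and 32 reads in upf1, at least 15.4-fold lower with 3 reads over the WT CHX libraries as the floor (adjusted p = 0.00494), while the WT libraries had 0 and 7 reads. This call was lost without WT CHX replicate 1 or 2 (limma adjusted p = 0.0540 and 0.0501).

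The opposite pattern was led by XUT0080, which was dense enough to be tested only through WT CHX. It had 64 reads in WT CHX against 2 in upf1, a ratio of 35.2 with a 95% counting interval of 9.36 to 297. XUT0929 on chromosome 9 (83463 to 85059, minus strand), which begins 705 nt from RPP2A, a gene of the ribosomal stalk, had 0.0539 and 0.0485 in WT CHX against 0.0133 and 0.0115 in upf1, 3.81-fold higher (limma adjusted p = 0.00339). XUT0641 on chromosome 5 (386246 to 388796, plus strand) had 0.0321 and 0.0296 in WT CHX against 0.00949 and 0.00826 in upf1, 3.13-fold higher (adjusted p = 0.0112). In both, the upf1 libraries overlapped those of WT and the WT CHX libraries stood above all of them. XUT0641 was no longer called when any of these 4 libraries was left out (adjusted p between 0.0508 and 0.0804).

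The mutation dcr1 was set against strains with Dicer to see which of these small RNAs need Dicer. In dcr1 upf1 against upf1, 155 of 174 tested solo XUTs fell and 0 rose (limma; 0 rose at an unadjusted p under 0.05 and 0 with limma-voom, which had 164 lower). The median log2 difference was -3.68 (-6.31 and -1.30 with a pseudocount 10 times smaller and larger, and -2.20 with mRNA-median scaling). It was -4.10 when 68 members that had no read in 1 of the groups were set to their bounds. For this, 13 others, at or under the floor in both groups, were left out. Over all features 83.9% were called lower and 0.285% higher, and of antisense XUTs 668 of 685 were lower with a median of -6.03. The summed density in dcr1 upf1 was 0.254% ± 0.0442 of that in upf1.

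In dcr1 CHX against WT CHX, 147 of 174 fell and 0 rose (limma; 0 rose at an unadjusted p under 0.05 and 0 with limma-voom, which had 149 lower), with a median of -2.75 (-4.86 and -0.90 with a pseudocount 10 times smaller and larger, and -0.90 with mRNA-median scaling). The median was -2.71 with 54 members at their bounds and 5 others, at or under the floor in both groups, left out. Over all features 87.1% were lower and 0.608% higher, and of antisense XUTs 661 of 685 were lower with a median of -5.01. The summed density in dcr1 CHX was 1.04% ± 0.461 of that in WT CHX, and without dcr1 CHX replicate 1 it was 0.00642 times that in WT CHX. With mRNA-median scaling, which moved the log2 values of all features by 2.09 and 2.39 at the median in the 2 comparisons, the members split into 114 lower and 6 higher in dcr1 upf1, beside 3606 lower and 1333 higher of all 7727 features, and into 63 lower and 6 higher in dcr1 CHX, beside 2920 lower and 1151 higher. The 0 that rose in dcr1 CHX was 1 without WT CHX replicate 2 or dcr1 CHX replicate 2.

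The densest members had many-fold falls, and a sparser member can show no larger fitted fall than its reads and the pseudocount allow. XUT0806 was 994-fold lower in dcr1 upf1 than in upf1 (limma adjusted p = 1.32e-09) and 254-fold lower in dcr1 CHX than in WT CHX (adjusted p = 9.64e-09). XUT0891 was 737-fold lower in dcr1 upf1 and 318-fold lower in dcr1 CHX (adjusted p = 2.14e-09 and 1.34e-08). XUT0908, XUT0011 and XUT0658 were 905-fold, 629-fold and 507-fold lower in dcr1 upf1. XUT0747 had 3 reads in dcr1 CHX against 1094 in WT CHX, a ratio without the pseudocount of 563 with a 95% counting interval of 192 to 2732. XUT0753, sparser than these, had 1 read in dcr1 upf1 against 656 in upf1. Its ratio without the pseudocount was 1346, with a 95% counting interval of 241 to 53234. On the fitted scale of the first folds given here, XUT0753 was 206-fold lower.

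**Figure D5:**
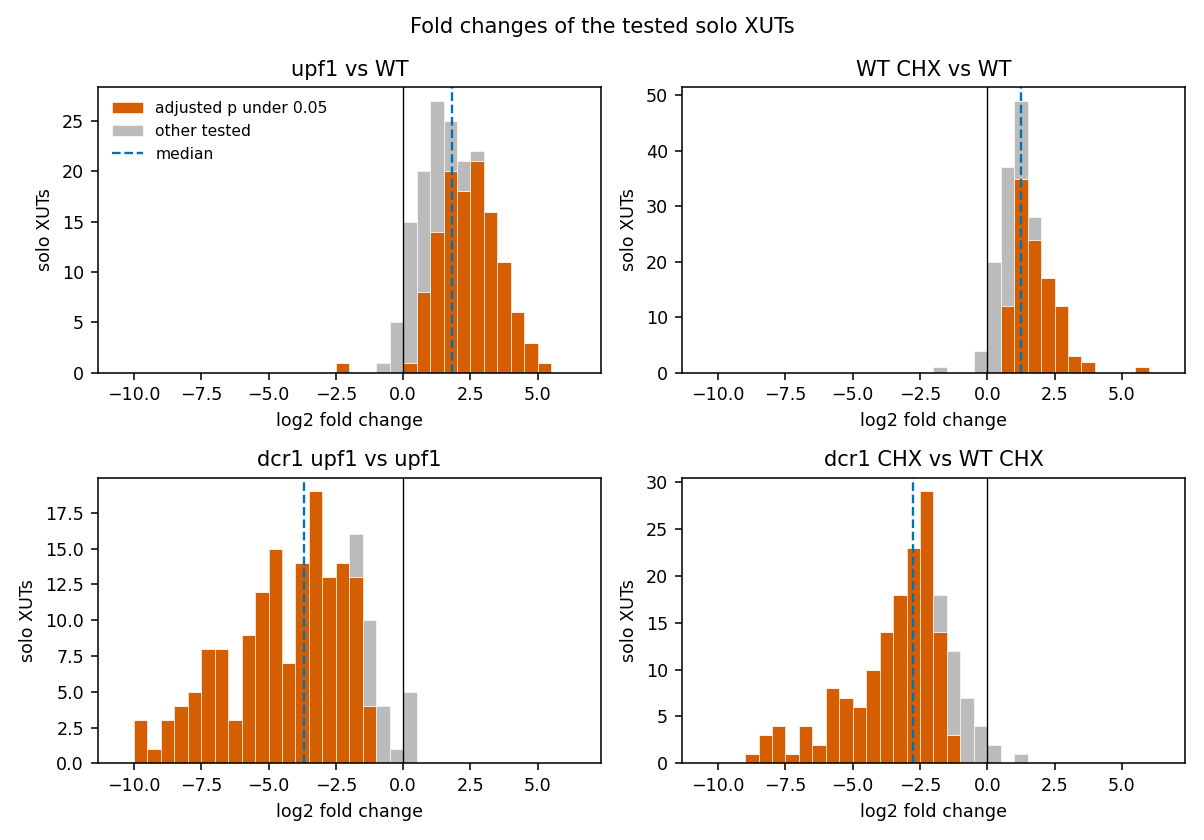
Histograms of log2 fold changes of the 174 tested solo XUTs in 4 comparisons with spike-in scaling, with called members in orange, others in grey and the median as a dashed line. Medians are 1.83 in upf1 vs WT, 1.24 in WT CHX vs WT (-0.20 with mRNA-median scaling), -3.68 in dcr1 upf1 vs upf1 and -2.75 in dcr1 CHX vs WT CHX.

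The histograms show that the falls without Dicer spread over a wide range, which the depth limits, since 96 of the 245 members had no read in the 4 Dicer-deficient libraries and 166 had at most 3. Among the 39 solo XUTs with 100 or more reads in each upf1 library, the median share of density left in dcr1 upf1 was 0.244%, against 0.128% for 344 antisense XUTs chosen the same way. Among the 26 with 100 or more reads in each WT CHX library, the share left in dcr1 CHX was 1.14%, against 0.608% for 226 antisense XUTs. Near the cutoff of 100 reads, shares this low correspond to few reads without Dicer, so their counting error is wide. XUT0875, with 3 reads in dcr1 upf1 against 595 in upf1, had a 95% counting interval of 139-fold to 1979-fold lower. Whether solo and antisense XUTs differ in the share left was not tested. The highest share in dcr1 upf1 was that of XUT0067, 6.84%, and the highest in dcr1 CHX that of XUT0963, 30.9%.

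A few sparser members kept their reads without Dicer. XUT0641 had densities of 0.0110 and 0.0126 in dcr1 upf1 against 0.00949 and 0.00826 in upf1, and 0.0296 and 0.0329 in dcr1 CHX against 0.0321 and 0.0296 in WT CHX. Neither difference passed the test (log2 0.36 ± 0.31, limma adjusted p = 0.307, and 0.02 ± 0.31, adjusted p = 0.960). XUT0165 on chromosome 1 (1796696 to 1797102, plus strand) had 0.0713 and 0.0840 in dcr1 upf1 against 0.0929 and 0.0985 in upf1 (adjusted p = 0.705). In upf1 strains the values of both transcripts without Dicer thus lay close to those with it.

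In dcr1 CHX the 2 libraries differed at XUT0165 and XUT0963. XUT0165 had 361 and 50 reads there (densities 0.469 and 0.0607), against 27 and 49 in WT CHX (0.0663 and 0.0783), which was not called as a difference (limma, adjusted p = 0.140). XUT0963 had 840 and 109 reads (0.458 and 0.0556), against 830 and 1201 in WT CHX (0.857 and 0.806). Replicate 1 thus held both high values, which made up 50.6% of its solo XUT reads, and without these 2 members the sum in dcr1 CHX was 0.571% ± 0.0392 of that in WT CHX.

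With Dicer absent from both, dcr1 upf1 was compared with dcr1 CHX. Of the 174 members 11 were lower in dcr1 upf1 and 0 higher (limma; 3 were higher at an unadjusted p under 0.05 and 0 with limma-voom), beside 9.85% of all features lower and 0.246% higher. The count was 1 when only these 4 libraries were fitted, 4 and 5 without dcr1 upf1 replicates 1 and 2, 3 and 19 with a pseudocount 10 times larger and smaller, and with mRNA-median scaling 8 were lower and 6 higher. XUT0250 on chromosome 1 (2908991 to 2909606, plus strand), which ends 3 nt from ERV2, had 4 and 1 reads in dcr1 upf1 against 31 and 27 in dcr1 CHX, 9.32-fold lower (limma adjusted p = 0.00214). XUT0929, with 5 and 2 reads in dcr1 upf1 against 33 and 28 in dcr1 CHX, was 5.12-fold lower (adjusted p = 0.00445). Both calls were lost when only these 4 libraries were fitted (limma adjusted p = 0.122 for XUT0250 and 0.120 for XUT0929).

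The 2 Dicer effects were also compared directly, as the log2 difference of dcr1 upf1 and upf1 minus that of dcr1 CHX and WT CHX. Of the 174 members, 46 had the deeper fall in upf1 and 3 in WT CHX, beside 18.4% and 5.29% of all features, and 30 had the deeper fall in upf1 without upf1 replicate 2 and 19 with a pseudocount 10 times smaller. All 3 with the deeper fall in WT CHX, and 3 of the 46, had at most 3 reads over each group of the other pair, so that no Dicer effect could be measured in 1 of the 2 backgrounds. Also among the 46, XUT1007, XUT0829, XUT0278 and XUT0371 had at most 3 reads over each Dicer-deficient group. Their values cannot be told apart from the difference between WT CHX and upf1. The median difference of the members was -0.84 on the log2 scale, or -1.31 and -0.40 with a pseudocount 10 times smaller and larger. Among antisense XUTs, 262 of 685 had the deeper fall in upf1 and 23 in WT CHX, with a median of -1.01. The share with the deeper fall in upf1 was thus 26.4% of solo XUTs and 38.2% of antisense XUTs. XUT0900 had a difference of -4.81 ± 0.46 (limma adjusted p = 0.000169) and XUT0302 one of -3.91 ± 0.36 (adjusted p = 0.00016). By construction, each value is the log2 difference of WT CHX against upf1 plus that of dcr1 upf1 against dcr1 CHX. These parts were -3.71 and -1.10 for XUT0900, and -2.95 and -0.96 for XUT0302. How far the calls of the 46 rest on the first part alone was not tested. XUT0302, on chromosome 2 (466260 to 467162, plus strand) 183 nt from ADK1, the adenylate kinase gene, had 0.334 and 0.350 in upf1, 0.0476 and 0.0389 in WT CHX, 0.00116 in both dcr1 upf1 libraries, and 0.00468 and 0.00274 in dcr1 CHX. Its level in WT CHX was 7.72-fold lower than in upf1 (adjusted p = 5.43e-05).

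The ends of the length range held both sparse and dense transcripts. XUT0915, the longest at 3576 nt, had 0.0366 and 0.0298 in upf1 against 0.00651 and 0.00879 in WT, 3.82-fold higher (limma adjusted p = 0.000953), and XUT0516 at 3116 nt had 0.358 and 0.320 in upf1 against 0.0283 and 0.0310 in WT, 10.9-fold higher (adjusted p = 3.86e-06). XUT0454 at 2916 nt had 0.00415 and 0.00629 in upf1 against 0.00283 and 0.00333 in WT (adjusted p = 0.221), and 0.0161 and 0.0129 in WT CHX, 3.52-fold above WT (adjusted p = 0.00301). The 3 shortest, XUT0546, XUT0128 and XUT0505, had at most 17 reads in a library. The 71 members not tested had at most 8 reads in any library.

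Around the 20 kb limit, XUT0837 and XUT0848, 14778 and 19621 nt from the chromosome's outermost feature, were the nearest outside, and XUT0924 and XUT0915, at 27837 and 28103 nt, the nearest inside. XUT0848 had 0.684 and 0.726 in upf1 against 0.0163 and 0.0152 in WT. XUT0924 had 0.00594 and 0.00427 in upf1 against 0.00533 and 0.00269 in WT.

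Small RNA from the genes of the decay machinery was counted by list. Of the 5 NMD factor genes, NAM7 included, 4 were higher in upf1 than in WT and 5 higher in WT CHX than in WT, and with mRNA-median scaling 3 and 1 were. These and the counts that follow stand beside 58.9% of all features higher in upf1 and 78.3% higher in WT CHX. Of the 14 tested genes of decapping and 5′-to-3′ decay, 6 were higher in upf1 and 10 in WT CHX, with medians of 0.65 and 1.43 on the log2 scale that became -0.53 and -0.09 with mRNA-median scaling. Of the 20 tested genes of the exosome and its cofactors, 10 were higher in upf1 and 18 in WT CHX, with medians of 0.89 and 2.02 that became -0.02 and 0.89 with that scaling. No gene of these lists was called lower than in WT with spike-in scaling. NAM7 was not called either, with no read in upf1 against 16 over the WT libraries. That is at least 3.91-fold lower with 3 reads over the upf1 libraries as the floor. EBS1, an NMD factor gene, had log2 differences of 2.29 in upf1 (limma adjusted p = 0.000127) and 3.10 in WT CHX (adjusted p = 8.73e-05). XRN1, whose product degrades XUTs, had 0.30 in upf1 (adjusted p = 0.512) and 2.46 in WT CHX (adjusted p = 0.00108). DCR1 and AGO1, the 2 genes of an RNA interference list, had no match in the gene table.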

How the data were processed

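Small RNAs below 80 nt from 25 µg of total RNA mixed with 1 µg of S. pombe RNA were sequenced by the authors, per the labels' protocols. The deposited values are a coverage signal (spike-in scaled read density per feature and strand) computed by the authors. The submitters' processing notes name Trim Galore and Bowtie, and ASM294v2 for S. pombe. Not given in the sources used here are the N. castellii build, the read lengths counted and the handling of multi-mapping reads, so reads shared with near-identical copies cannot be told apart. Coordinates are those of the deposited file. Of its 5600 mRNAs, 5589 were found in the RefSeq table of ASM23734v1, which gave symbols (start shared by 5589, end by 5587).

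From the 8770 entries, 92 synthetic controls at 0 and 271 repeats of an interval were dropped. Density times length was a whole multiple of a step per library in 100% of features (tolerance 0.001), which gave read numbers. The 5 columns of group means were not used. Differences were tested two-sided on log2(density + 0.00145) with limma 3.58.1 (R 4.3.3), with a variance trend and Benjamini-Hochberg adjustment over 7727 features with a mean density at or above that pseudocount, with calls at 0.05. To set the pseudocount, the 10th percentile of the densities above 0 was taken in each library, and the middle of these 10 values was used. The 6 libraries with Dicer were fitted together for comparisons among them, and all 10 otherwise. Fold changes are on this scale, which understates those of sparse features. Of the 245 members, 174 passed the filter, partly through the groups where they are dense, and 71 did not. A fold against a group without reads is a bound against 3 reads over its libraries. Intervals (95%, exact) and these floors cover counting error only. The replicates are described as biological, with no word on separate cultures beyond that, so p-values measure the spread between these libraries. Named members are the 10 densest with Dicer and 5 densest without, up to 8 largest rises and falls per comparison among called members with separated libraries and 10 or more reads in each library of the higher group, 3 nearest the upf1 median, the 3 longest and shortest, those at the 20 kb limit, and examples from the decay gene lists. The members and lists were chosen with earlier results of these data known. In bulk RNA, fewer producing cells and less RNA per cell cannot be told apart.

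Replicate numbers did not pair the libraries. The correlations of same-numbered deviations lay between -0.031 and 0.020. Alternatives were other pseudocounts, no filter, 2 other scalings, a replicate block, no trend, other sets of libraries and each library left out, and limma-voom.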

Additional observations from a re-analysis of the deposited data

Results flagged for a closer look

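The difference between the 2 Dicer effects, (dcr1 upf1 minus upf1) minus (dcr1 CHX minus WT CHX), was tested with limma over all features, and 46 solo XUTs had the deeper fall with upf1 (19 with a pseudocount 10 times smaller) and 3 the deeper fall with cycloheximide. The deeper fall with upf1 was called for 26.4% of solo XUTs tested, 38.2% of antisense XUTs and 18.4% of all features. By the rule for named members, the log2 differences were -4.81 for XUT0900, -4.18 for XUT1007, -3.91 for XUT0302, -3.88 for XUT0829, -3.71 for XUT0278, -3.47 for XUT0371 and -3.46 for XUT0753, with limma adjusted p-values between 0.00016 for XUT0302 and 0.00858 for XUT0371. The rule also names XUT0388, with -5.71, and XUT0080, with 4.86, but these are no comparison of Dicer effects. XUT0388 had no read in dcr1 CHX and WT CHX, and XUT0080 had no read in dcr1 upf1 and 2 in upf1, so their values restate the difference between WT CHX and upf1. XUT0004 and XUT0023 among the 46, and XUT0402 and XUT0951 among the 3, also had at most 3 reads over each group of 1 pair. Several of these members had no read in a Dicer-deficient group (XUT1007, XUT0829 and XUT0371 in dcr1 upf1), so the depth of their falls is bounded by the floor of 3 reads. These and XUT0278 had at most 3 reads over each Dicer-deficient group. Between WT CHX and upf1 the log2 differences were -3.65 for XUT1007, -2.97 for XUT0829, -3.15 for XUT0371 and -3.04 for XUT0278. The 2 kinds of difference cannot be told apart for these 4 members. For XUT0900, XUT0302 and XUT0753 the differences between WT CHX and upf1 were -3.71, -2.95 and -2.48. Those between dcr1 upf1 and dcr1 CHX, the other part of each value, were -1.10, -0.96 and -0.98. XUT0829 had 84 and 114 reads in upf1 against 12 and 9 in WT CHX, and XUT0753 had 283 and 373 reads in upf1 against 37 and 70 in WT CHX.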

How the results depend on the processing

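Over 1196 refits of 85 pairs of a named member and a comparison, 1080 kept direction and side of the threshold, 96 lost the call, 3 gained it and 17 changed sign. The planned edgeR (with and without TMM) and DESeq2 fits were not run, because the file holds no counts, and limma-voom on recovered reads and sums without the densest member or without XUT0165 and XUT0963 were chosen after seeing the data. With mRNA-median scaling, solo XUTs called were 65 higher in upf1 vs WT, 13 higher in WT CHX vs WT and 63 lower in dcr1 CHX vs WT CHX. The summed ratios became 0.974 (upf1 vs WT), 0.439 (WT CHX vs WT), 0.451 (WT CHX vs upf1), 0.0331 (dcr1 upf1 vs upf1), 0.105 (dcr1 CHX vs WT CHX) and 0.802 (dcr1 upf1 vs dcr1 CHX). The log2 values of upf1 vs WT turned negative for XUT0011 (-1.05), XUT0497 (-0.62), XUT0658 (-0.70), XUT0747 (-0.96) and XUT0891 (-0.20), and those of WT CHX vs WT for XUT0011 (-1.73), XUT0406 (-0.62), XUT0497 (-0.76), XUT0658 (-1.63), XUT0747 (-1.13), XUT0806 (-1.07), XUT0891 (-1.15), XUT0908 (-1.24) and XUT0941 (-0.68), while XUT0802 in dcr1 upf1 vs dcr1 CHX became 0.014. With scaling on tRNA, rRNA and snoRNA, WT CHX vs WT was -0.30 for XUT0011 and -0.20 for XUT0658, and the summed ratios were 2.03 (upf1 vs WT) and 1.18 (WT CHX vs WT). By construction, these scalings set another class level. Without the 5 densest members the summed ratios were 4.46, 2.51, 0.0122 (dcr1 upf1 vs upf1) and 0.0727 (dcr1 CHX vs WT CHX). Without XUT0891 they were 2.90 (upf1 vs WT), 0.526 (WT CHX vs upf1), 0.00412 and 0.0232, and without XUT0165 and XUT0963 0.00195 and 0.00571 for the same 2 Dicer comparisons. The call count of dcr1 upf1 vs dcr1 CHX (11) was 19 and 3 with a pseudocount 10 times smaller and larger, 3 with tRNA, rRNA and snoRNA scaling, 7 without the trend and 1 with its own groups only, and the cause was not tested. The replicate block gave 7 there, and 117, 105, 57, 155, 147 and 45 in the other comparisons in the order of the text. That of the 2 Dicer effects (46) was 19 with the smaller pseudocount. Leaving out each library in turn, counts ranged over 95 to 107 (upf1 vs WT), 78 to 100 (WT CHX vs WT), 40 to 47 (WT CHX vs upf1), 146 to 155, 138 to 149, 4 to 11 (4 and 5 without dcr1 upf1 replicates 1 and 2) and 30 to 44 (30 without upf1 replicate 2), and summed ratios over 2.26 to 2.81, 1.54 to 1.63, 0.563 to 0.701, 0.00229 to 0.00286, 0.00642 to 0.0144 and 0.284 to 0.635, the last without dcr1 CHX replicate 1. With 1 library left in a group, it is assumed to vary like the others. The sparse reads of the Dicer-deficient libraries limit every fall there.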
